A study of Mus musculus with 45 samples.

Results

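Lgr5 knockout (KO) and wild-type (WT) intestinal organoids grown in a high dose of Rspondin 2 (Rspo2) were compared here. The comparison holds 5 of the 45 libraries of the series, the Rspo2 libraries at 100 ng/ml of KO cultures KO7 and KO2 and of WT cultures WT10, WT5 and WT30, and all genes outside chromosomes X and Y. Organoids are epithelial structures grown in Matrigel from intestinal cells. Each culture was started from the small intestine of 1 embryo at E17.5 of the Lgr5-DTReGFP mouse line and was sequenced at passage 4. A knocked-in DTR-eGFP cassette (diphtheria toxin receptor with eGFP) disrupts Lgr5 in this line. The KOs carried this knockout and the controls of the same line were wild type for Lgr5, so that KO and WT differed in the cassette as well as in the receptor. WT and KO organoids shared the medium, which contained EGF and noggin, and a ROCK inhibitor (Y-27632) was present at replating. The same 5 cultures were also grown in Rspo1 and Rspo3 at 100 ng/ml and in Rspo2 at 5 ng/ml, and these libraries serve below to show whether a genotype difference was larger in high Rspo2.

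Rspondins are secreted proteins that bind the receptors Lgr4, Lgr5 and Lgr6. The bound complex takes the ubiquitin ligases Rnf43 and Znrf3 off the cell surface, which leaves more Frizzled receptors for Wnt ligands. In the intestine, Wnt/β-catenin signaling maintains the Lgr5+ve stem cells at the base of the crypt and promotes the Paneth cell lineage. Lgr5 and Axin2 are themselves Wnt/β-catenin target genes.

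RNA was sequenced after depletion of ribosomal RNA, and the deposited values are CPM, the reads of a gene scaled by all reads counted on genes in its library. The depth recovered for the 5 libraries was 18127665 to 24164527 reads counted on genes, so that 1 read was worth 0.0414 to 0.0552 CPM. Epithelial markers (Epcam, Cdh1, keratins, Cdx1 and Cdx2, Cldn7) summed to 4363 to 4853 CPM. The 11 mesenchymal markers summed to 10 to 19.2 CPM in WTs and to 8.9 and 11.3 CPM in KOs, the 7 immune markers to 23.6 to 30.3 and to 21.5 and 27.6 CPM, the 7 neural markers to 16.1 to 26.6 and to 12.9 and 18.7 CPM, and the 5 endothelial markers to at most 2.4 CPM in any library. The endothelial markers Kdr and Cdh5 were at 0 in all 5 libraries. The X-linked transcript Xist was at 2252 to 3295 CPM in the 3 WTs and at 20.1 CPM in KO7 and 0.85 CPM in KO2, while the Y-linked Ddx3y was at 0 to 0.05 CPM in the WTs and at 55.0 and 73.5 CPM in the KOs. The WT cultures thus read as female and both KO cultures as male, and effects of genotype and of sex cannot be told apart in any value below. With 3 WT and 2 KO cultures, each from 1 embryo, p-values rest on the spread between few embryos.

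The gene targeted in the line, Lgr5, is ENSMUSG00000020140 and spans 115450311 to 115587780 of chromosome 10 on the minus strand in GRCm38. It was at 379, 247 and 458 CPM in WT10, WT5 and WT30 and at 104 and 75.0 CPM in KO7 and KO2. Both KO values lay below all WT values, and the mean was 4.03-fold lower in KOs. The fitted log2 fold change on the log2(CPM + 1) scale was -1.97 (standard error, SE, 0.27), and Lgr5 did not pass the test across all genes (limma, Benjamini-Hochberg adjusted p = 0.0689). Without WT5 it passed (log2 change -2.22, limma adjusted p = 0.0414). It did not pass without WT10 (log2 change -1.91, limma adjusted p = 0.469) or without WT30 (log2 change -1.78, limma adjusted p = 0.230). Transcripts counted on Lgr5 were thus still present in KO organoids. These counts cover the whole gene and do not tell an intact transcript from one disrupted by the cassette.

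Of 17349 genes tested outside X and Y, 11 passed at an adjusted p of 0.05 (0.0634%), 6 with higher values in KOs (0.0346%) and 5 with lower values (0.0288%). A further 12 genes on X and Y passed. At an unadjusted p under 0.05 there were 1501 genes (8.65%), 743 higher in KOs (4.28%) and 758 lower (4.37%). KO values lay wholly above the WT values for 1923 genes (11.1%) and wholly below them for 2480 genes (14.3%). The median log2 fold change of the tested genes was -0.03. In simulated libraries of this design, 200 genes were changed by 2 or by 1 on the log2(CPM + 1) scale, with independent normal noise for each gene. Of these, 81.5% and 31% were called, with 8 and 2 false calls. For genes of a few CPM, a change of this size on that scale is a larger fold of CPM. The adjusted p depends on how many genes change, so these shares need not hold for the data.

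**Figure D1:**
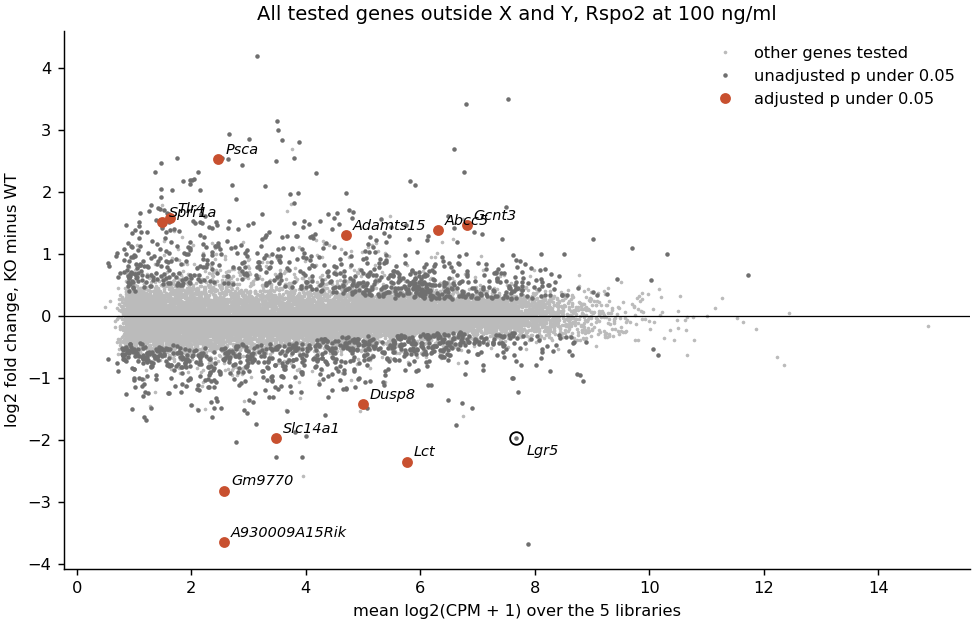
Log2 fold change (KO minus WT, vertical axis) against mean log2(CPM + 1) of the 5 libraries (horizontal axis) for the 17349 genes tested outside X and Y in Rspo2 at 100 ng/ml. Red points are the 11 genes that passed, dark points those at an unadjusted p under 0.05, and the ring marks Lgr5 at -1.97.

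The largest difference among the genes that passed was that of A930009A15Rik (ENSMUSG00000092210, chromosome 10, 115569986 to 115582448, plus strand), a gene known only by a clone name. It was at 18.0, 11.4 and 17.2 CPM in the WTs and at 0.4 and 0.2 CPM in the KOs. The KO mean was 51.8-fold lower, and the log2 fold change was -3.65 (SE 0.25, limma adjusted p = 0.00185). The gene lies inside Lgr5 on the opposite strand, within the first intron of 6 of the 8 annotated Lgr5 transcripts (in Lgr5-201, 115520678 to 115587281), and 0 bases of its exons overlap an Lgr5 exon. Whether the counting used strand is not given in the sources used here, so reads of this gene and unspliced reads of Lgr5 cannot be told apart. The sequence before its RefSeq start is shown because the gene sits within the targeted locus, and those of Lct and Sprr1a because they were the genes of known function with the largest fall and rise among the 5 of 11 genes that the promoter table lists. Each runs 5′ to 3′ on the strand of its gene over the 250 bases before the start (RefSeq, GRCm38.p6), and capitals mark matches to the motifs searched.
A930009A15Rik, chr10:115569767-115570016, plus strand: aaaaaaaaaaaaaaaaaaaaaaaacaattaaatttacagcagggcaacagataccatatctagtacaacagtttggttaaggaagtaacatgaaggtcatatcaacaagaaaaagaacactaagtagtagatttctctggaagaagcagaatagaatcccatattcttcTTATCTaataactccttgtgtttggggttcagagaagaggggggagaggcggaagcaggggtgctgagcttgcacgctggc
Lct, chr1:128328319-128328568, minus strand: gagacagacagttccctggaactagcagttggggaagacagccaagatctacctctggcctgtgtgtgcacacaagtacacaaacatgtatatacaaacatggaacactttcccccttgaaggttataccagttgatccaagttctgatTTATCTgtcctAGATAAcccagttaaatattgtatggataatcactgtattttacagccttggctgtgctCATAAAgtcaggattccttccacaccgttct
Sprr1a, chr3:92485882-92486131, minus strand: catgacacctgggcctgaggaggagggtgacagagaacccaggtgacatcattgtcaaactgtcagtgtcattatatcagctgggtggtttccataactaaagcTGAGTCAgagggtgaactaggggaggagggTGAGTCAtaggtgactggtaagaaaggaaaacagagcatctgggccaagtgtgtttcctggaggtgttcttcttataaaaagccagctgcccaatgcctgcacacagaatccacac
The motifs searched on both strands were AGATAA for GATA factors, TTTATG for CDX factors, CTTTGAT and CTTTGAA for TCF/LEF factors, and TGANTCA for AP-1. They are found in 9.99%, 10.8%, 7.48% and 6.75% of the 32851 promoters of the table. A930009A15Rik holds 1 GATA match, Lct holds 2 GATA matches and 1 CDX match, and Sprr1a holds 2 AP-1 matches. Of the other 2 genes that passed and are listed, Abcc5 holds 1 TCF/LEF match and Dusp8 none of the motifs.

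WT and KO libraries of all 4 conditions lay apart in the ratio of A930009A15Rik to Lgr5. In Rspo2 at 100 ng/ml, WTs had 4.75, 4.62 and 3.76 CPM of A930009A15Rik for each 100 CPM of Lgr5, and the KOs had 0.383 and 0.267. In the other 3 conditions the same ratio was 2.83 to 7.48 in WTs and 0.121 to 0.711 in KOs. The lowest WT ratio was above the highest KO ratio in each condition, and this held in Rspo2 at 5 ng/ml, where Lgr5 was at 90.5 CPM in KO2 and at 6.1 to 28.7 CPM in the WTs. At that low dose A930009A15Rik itself was at 0.2 CPM in both WT30 and KO2, so the ratios of WT30 and KO2 differed through Lgr5 alone (6.1 and 90.5 CPM). The lowest KO values, at 0.05 CPM, rest on about 1 read.

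**Figure D2:**
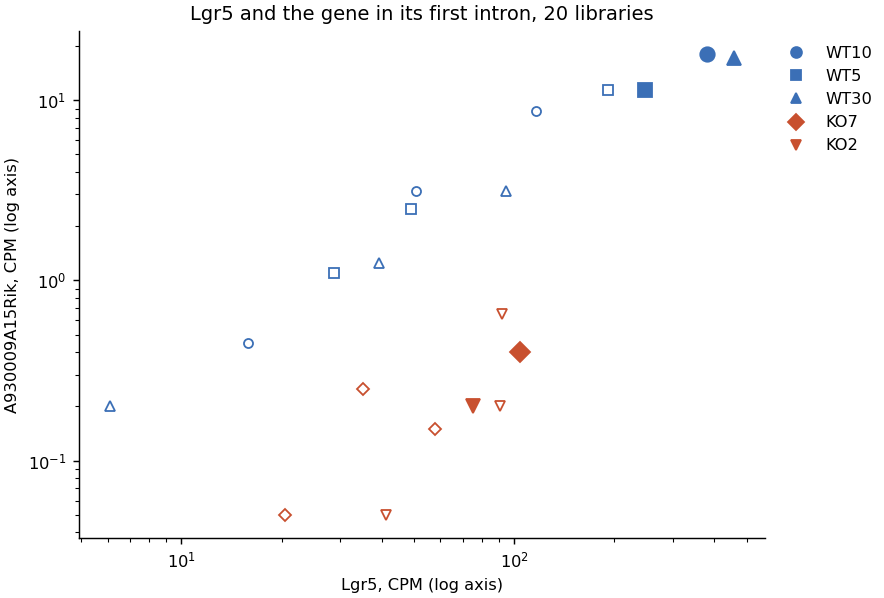
CPM of A930009A15Rik (vertical) against CPM of Lgr5 (horizontal), both on log axes, in the 20 libraries of 5 cultures under 4 conditions. Filled symbols are Rspo2 at 100 ng/ml, open symbols the other conditions, blue WT and red KO. KO libraries had 0.121 to 0.711 CPM of A930009A15Rik per 100 CPM of Lgr5 and WT libraries 2.83 to 7.48.

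The processed pseudogene Gm9770 (ENSMUSG00000040540, chromosome 10, 130412499 to 130413309, plus strand) was at 13.2, 15.2 and 8.65 CPM in WTs and at 1.0 and 0.7 CPM in KOs. It fell by 2.82 on the log2 scale in KOs (SE 0.27, limma adjusted p = 0.0158). It lies 14.8 Mb from Lgr5 on the same chromosome, and reads of a pseudogene may be shared with its parent gene. Its values were similar in the other conditions, at 6.95 to 17.7 CPM in the WT libraries and at 0.45 to 0.95 CPM in the KO libraries. Within 10 Mb of Lgr5, 99 genes were tested, of which A930009A15Rik passed and 12 (12.1%) had an unadjusted p under 0.05, 10 of them lower in KOs and 2 higher. Over all tested genes the share was 8.65%, with 4.37% lower in KOs and 4.28% higher. By chromosome the share in both directions ran from 6.51% on chromosome 12 to 15.2% on chromosome 19. Among the 99 genes, which include Lgr5 itself, KO values lay wholly below WT values for 21 (background 14.3%) and wholly above for 11 (background 11.1%).

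Lct (ENSMUSG00000026354, chromosome 1, 128284756 to 128328318, minus strand) codes for lactase, the brush border enzyme of suckling that splits milk sugar. It was at 105, 82.7 and 126 CPM in WTs and at 25.8 and 14.6 CPM in KOs. The groups did not overlap, the KO mean was 5.18-fold lower, and the log2 fold change was -2.35 (SE 0.26, limma adjusted p = 0.0374). Slc14a1 (ENSMUSG00000059336, chromosome 18, 78100091 to 78142119, minus strand), a urea transporter, was at 13.7, 21.6 and 20.7 CPM in WTs and at 4.15 and 3.7 CPM in KOs. It fell 4.76-fold (log2 change -1.97, SE 0.24, limma adjusted p = 0.0490). Dusp8 (ENSMUSG00000037887, chromosome 7, 142079490 to 142095843, minus strand), a phosphatase that inactivates stress-activated MAP kinases, was at 49.7, 41.6 and 48.2 CPM in WTs and at 14.7 and 18.9 CPM in KOs. It fell 2.77-fold (log2 change -1.42, SE 0.16, limma adjusted p = 0.0437).

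Of the 6 genes that rose in KOs, the 3 at the lowest levels are given first. Psca (ENSMUSG00000022598, chromosome 15, 74714839 to 74717069, plus strand), which codes for a lipid-anchored surface protein of the Ly6 family, was at 2.6, 2.1 and 0.85 CPM in WTs and at 15.9 and 14 CPM in KOs. It rose 8.07-fold in mean CPM (log2 change 2.53, SE 0.31, limma adjusted p = 0.0490). Tlr4 (ENSMUSG00000039005, chromosome 4, 66827584 to 66930284, plus strand), the receptor for bacterial lipopolysaccharide, was at 1.1, 1.15 and 0.75 CPM in WTs and at 5.1 and 4.85 CPM in KOs (log2 change 1.58, SE 0.19, limma adjusted p = 0.0490). Sprr1a (ENSMUSG00000050359, chromosome 3, 92483952 to 92485895, minus strand), a small proline-rich protein of the cornified envelope that is also induced in injured gut, was at 0.9, 0.75 and 0.85 CPM in WTs and at 3.85 and 4.65 CPM in KOs (log2 change 1.51, SE 0.19, limma adjusted p = 0.0490). For these low genes the added 1 makes the fitted change smaller than the ratio of the CPM, which was 4.97 for Tlr4 and 5.10 for Sprr1a.

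The other 3 rises were of more abundant genes. Gcnt3 (ENSMUSG00000032226, chromosome 9, 70031496 to 70038088, minus strand), a glycosyltransferase that branches the O-glycans of mucins, was at 68.5, 89.0 and 65.9 CPM in WTs and at 220 and 192 CPM in KOs, a 2.77-fold rise (log2 change 1.46, SE 0.16, limma adjusted p = 0.0357). Abcc5 (ENSMUSG00000022822, chromosome 16, 20331303 to 20426394, minus strand), an ATP-driven exporter of organic anions and cyclic nucleotides, was at 51.7, 63.9 and 45.1 CPM in WTs and at 143 and 138 CPM in KOs, a 2.62-fold rise (log2 change 1.39, SE 0.16, limma adjusted p = 0.0437). Adamts15 (ENSMUSG00000033453, chromosome 9, 30899155 to 30922452, minus strand), a secreted protease of proteoglycans, was at 16.4, 15.5 and 19.6 CPM in WTs and at 43.6 and 43.9 CPM in KOs, a 2.55-fold rise (log2 change 1.31, SE 0.16, limma adjusted p = 0.0490). KO and WT values did not overlap for any of the 11 genes, which is no separate evidence, since the test chose the genes by these values. Over all tested genes, KO values lay wholly above WT values for 11.1% and wholly below for 14.3%.

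**Figure D3:**
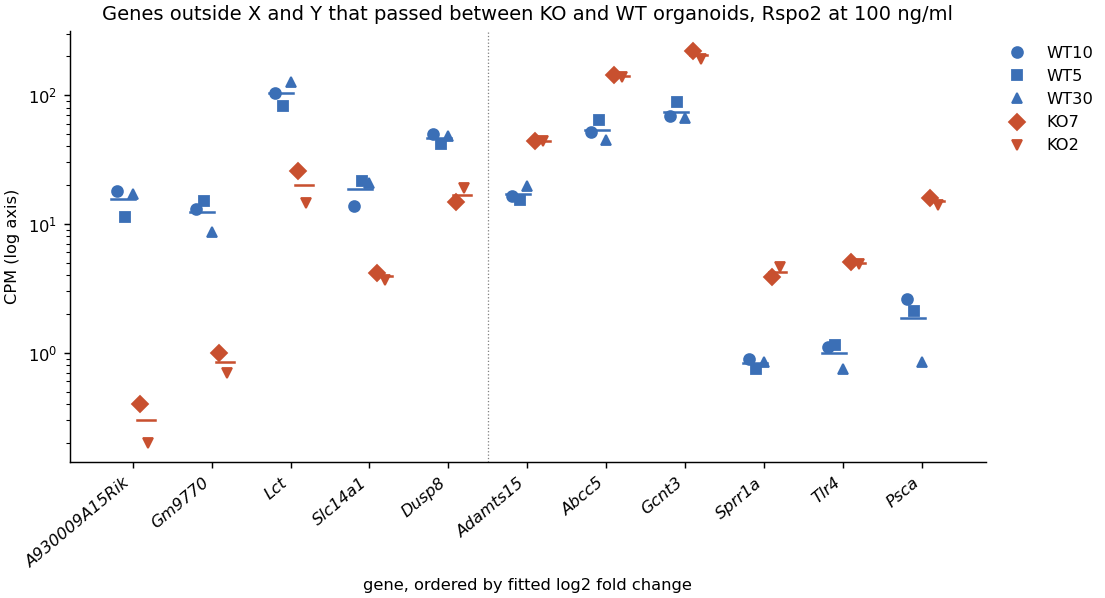
CPM (log axis) of the 11 genes that passed, in WT10, WT5 and WT30 (blue) and KO7 and KO2 (red), with a line at each group's mean. Genes run from the lowest to the highest fitted log2 fold change, and the dotted line separates the 5 falls from the 6 rises. No WT value lies within the range of the KO values.

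Just outside the limit of the test were genes chosen for naming after their values were seen. Fabp5, a fatty acid binding protein, was at 11.7, 10.8 and 11.4 CPM in WTs and at 27.7 and 28.9 CPM in KOs (limma adjusted p = 0.0501). Cpt1a, which brings fatty acids into mitochondria, was at 76.4, 77.4 and 76.7 CPM in WTs and at 168 and 138 CPM in KOs (limma adjusted p = 0.0574). Sprr2a3, of the same family as Sprr1a, was at 1.15, 1.6 and 0.4 CPM in WTs and at 7.15 and 8.95 CPM in KOs (limma adjusted p = 0.0678).

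Among the Rspondin receptors and their ubiquitin ligases, Lgr6 was at 0 to 0.1 CPM and 0 of the 4 tested genes passed. Lgr4, the receptor that shares Rspondins with Lgr5, was at 332, 279 and 310 CPM in WTs and at 355 and 303 CPM in KOs, and the groups overlapped. The log2 fold change was 0.10, with a 95% interval of -0.22 to 0.42 (limma adjusted p = 0.863). Rnf43 was at 327, 266 and 338 CPM in WTs and at 350 and 205 CPM in KOs (log2 change -0.20, limma adjusted p = 0.831), so that 1 KO lay above and the other below every WT. Znrf3 was at 114, 97.2 and 139 CPM in WTs and at 82.2 and 76.7 CPM in KOs, wholly below the WTs (log2 change -0.54, limma adjusted p = 0.381). Of 8 tested proteoglycans that can bind Rspondins, 0 passed, and the 3 most abundant, Sdc1, Sdc4 and Gpc4, had log2 fold changes of 0.23, -0.16 and -0.09.

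None of the 17 tested Wnt target and feedback genes passed. This list and those below were chosen with earlier results of these data known, so counts set beside a background only describe the members. Their median log2 fold change was -0.45 (-0.62 to -0.31 with single cultures left out), against -0.03 for all tested genes, and 14 of 17 had a negative one. At an unadjusted p under 0.05, 8 were lower in KOs, where the background is 4.37%, and 1 was higher (background 4.28%). Axin2, a negative feedback regulator of β-catenin, was at 530, 462 and 615 CPM in WTs and at 423 and 379 CPM in KOs, wholly below the WTs (log2 change -0.41, SE 0.16, limma adjusted p = 0.513). Sox4, a transcription factor of progenitors, was at 391, 325 and 479 CPM in WTs and at 216 and 210 CPM in KOs (log2 change -0.88, limma adjusted p = 0.2). Ccnd2, a cyclin of the G1 phase, went the other way, at 526, 608 and 634 CPM in WTs and at 1143 and 692 CPM in KOs (log2 change 0.60, limma adjusted p = 0.501).

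The intestinal stem cell genes, which share Lgr5, Axin2 and Tnfrsf19 with other lists, had a median log2 fold change of -0.44 over 15 tested genes (-0.68 without WT5), of which 0 passed. KO values lay wholly below WT values for 9 of them (background 14.3%) and wholly above for 1 (background 11.1%). Lgr5, the gene disrupted in the KOs, is among the 9. Olfm4, a secreted glycoprotein of stem cells, was at 1303, 996 and 1443 CPM in WTs and at 878 and 834 CPM in KOs (log2 change -0.53, limma adjusted p = 0.493). Slc12a2, an ion cotransporter of crypt cells, was at 1841, 1651 and 2485 CPM in WTs and at 1583 and 1415 CPM in KOs (log2 change -0.39, limma adjusted p = 0.660). In bulk samples, fewer cells of a type and less RNA per cell cannot be told apart.

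Paneth cells, the granular cells of the crypt that secrete antimicrobial peptides, had a median log2 fold change of -0.50 over 17 tested genes. Of these 16 had a negative log2 fold change, 4 had an unadjusted p under 0.05 and lower values in KOs (background 4.37%), and 0 passed. The median was -0.25 without WT10 and -0.76 without WT5. Lyz1 (lysozyme) was at 695, 468 and 591 CPM in WTs and at 246 and 360 CPM in KOs (log2 change -0.95, limma adjusted p = 0.258). Itln1, a lectin that binds microbial sugars, was at 801, 444 and 645 CPM in WTs and at 260 and 339 CPM in KOs (log2 change -1.04, limma adjusted p = 0.277). Defa24, an α-defensin, was at 336, 188 and 300 CPM in WTs and at 167 and 202 CPM in KOs, so that KO2 lay above WT5 (log2 change -0.54, limma adjusted p = 0.587). Defensin genes and the pair Lyz1 and Lyz2 share near-identical sequence that read counting may split, and single values of these genes are uncertain.

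Among the other secretory lineages, 0 of 12 goblet cell genes passed. At an unadjusted p under 0.05, 2 of them were higher in KOs (background 4.28%) and 2 lower (background 4.37%). Their log2 fold changes ran from -0.50 to 1.28. Muc2, the main secreted mucin, was at 518, 399 and 466 CPM in WTs and at 303 and 377 CPM in KOs (log2 change -0.44, limma adjusted p = 0.493), and Fcgbp, which binds mucins, was at 2497, 1788 and 2309 CPM in WTs and at 2205 and 2606 CPM in KOs. Tff3, a trefoil peptide, had a log2 fold change of -0.003 (SE 0.19). Of 15 enteroendocrine genes and 7 tuft cell genes tested, 0 passed, with medians of -0.44 and -0.36. At an unadjusted p under 0.05, 2 enteroendocrine genes were lower in KOs and 0 higher, and 1 tuft cell gene was higher and 0 lower. Without WT30 the enteroendocrine median was -0.19 and the tuft cell median 0.00. Chga and Chgb, granins of hormone-secreting cells, were at 37.2, 40.4 and 97.9 CPM and at 148, 112 and 257 CPM in WTs, and at 33.6 and 31.7 CPM and at 120 and 115 CPM in KOs. WT30 was the highest library for both, and it also had the highest summed tuft cell genes, at 45.9 CPM against 19.6 to 21.6 CPM in the other 4 libraries.

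Enterocyte genes were divided between the directions. The median log2 fold change of the 22 tested genes was 0.01 (-0.21 without KO2 and 0.22 without KO7), 11 were higher and 11 lower, and Lct alone passed. The 3 most abundant members were Apob, which carries lipid in chylomicrons and was at 1551, 2069 and 1302 CPM in WTs and at 1028 and 2337 CPM in KOs, and the brush border disaccharidases Sis, at 1505, 1674 and 1086 CPM against 1411 and 1013 CPM, and Mgam, at 1441, 1764 and 1413 CPM against 1375 and 997 CPM. Their log2 fold changes were -0.06, -0.23 and -0.39. Slc15a1, the peptide transporter of the brush border, was named after its values were seen. It was at 12.7, 6.9 and 4.35 CPM in WTs and at 29.4 and 27.7 CPM in KOs (log2 change 1.82, SE 0.36, limma adjusted p = 0.201).

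The fetal and regenerative epithelium list had a median log2 fold change of 1.24 over 15 tested genes, 13 of them with a positive log2 fold change. Sprr1a passed, 10 genes had an unadjusted p under 0.05 and higher values in KOs (background 4.28%), and 1 had lower values (background 4.37%). Members of this list, too, were chosen with earlier results of these data known. Clu, a secreted chaperone that marks regenerating epithelium, was at 88.4, 67.8 and 98.1 CPM in WTs and at 264 and 176 CPM in KOs (log2 change 1.35, SE 0.22, limma adjusted p = 0.142). Msln, a surface protein of mesothelium and of fetal and metaplastic epithelium, was at 109, 64.4 and 12.3 CPM in WTs and at 415 and 212 CPM in KOs (log2 change 2.70, SE 0.80, limma adjusted p = 0.373). Krt7, a keratin of simple ducts, was at 241, 208 and 214 CPM in WTs and at 457 and 241 CPM in KOs, so that KO2 lay among the WTs (log2 change 0.59, limma adjusted p = 0.567). Spp1, which codes for osteopontin and was named after its values were seen, was at 1.25, 6.15 and 0.3 CPM in WTs and at 79.8 and 30.9 CPM in KOs (log2 change 4.20, SE 0.70, limma adjusted p = 0.152). Areg, an EGF receptor ligand also named after its values were seen, was lower in KOs, at 64.3, 44.0 and 54.3 CPM in WTs and at 33.2 and 18.9 CPM in KOs. KO7 exceeded KO2 for most of the list, and the median was 1.65 without KO2 and 0.58 without KO7. With KO2 left out, and KO7 assumed to vary as the WTs did, 6 of the genes passed, and 0 passed without any other single culture.

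Basement membrane and matrix genes were mixed in direction. Of 18 tested genes, 0 passed, and this count was not stable when single cultures, of WTs or KOs, were left out (2 without WT5). A positive log2 fold change was found for 12 and a negative one for 6. The median was 0.37 (0.66 without KO2 and 0.09 without KO7). At an unadjusted p under 0.05, 6 were higher in KOs (background 4.28%) and 3 lower (background 4.37%). KO values lay wholly above WT values for 6 (background 11.1%) and wholly below for 4 (background 14.3%). In the other conditions, with 17 genes tested, the median was 0.54 in Rspo1 and 0.81 in Rspo3 at 100 ng/ml and 0.93 in Rspo2 at 5 ng/ml. The abundant Agrn, Lama5 and Hspg2 had log2 fold changes of 0.38, 0.41 and -0.15. Lama5, a laminin chain of the epithelial basement membrane, was at 430, 393 and 419 CPM in WTs and at 936 CPM in KO7 but at 324 CPM in KO2. The genes Col4a1 and Col4a2, which code for the paired chains of type IV collagen and were named after their values were seen, were at 8.25, 8.0 and 2.85 CPM and at 7.65, 8.65 and 2.7 CPM in WTs. In KO7 and KO2 they were at 59.8 and 25.6 CPM and at 75.3 and 28.7 CPM (log2 fold changes 2.55 and 2.81, limma adjusted p = 0.184 and 0.176). The log2 fold changes of Col4a1 and Col4a2 were 3.15 and 3.50 without KO2, and 1.96 and 2.13 without KO7. Thbs1, a secreted matricellular protein also named after its values were seen, was at 187, 97.2 and 220 CPM in WTs and at 43.7 and 49.3 CPM in KOs (log2 change -1.75, SE 0.32, limma adjusted p = 0.173).

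Immediate early genes, which are transcribed within minutes of growth factor signaling or stress, had a median of -0.37 over 11 tested genes. None passed, and 5 had an unadjusted p under 0.05, all of them lower in KOs (background 4.37%). Jun, a component of AP-1, was at 166, 116 and 191 CPM in WTs and at 50.3 and 67.1 CPM in KOs (log2 change -1.39, SE 0.23, limma adjusted p = 0.145). Jund was at 392, 370 and 369 CPM in WTs and at 297 and 248 CPM in KOs (log2 change -0.47, limma adjusted p = 0.345), and Junb overlapped between the groups (log2 change -0.11). Atf3, a stress-induced transcription factor named after its values were seen, was at 37.9, 21.2 and 23.3 CPM in WTs and at 5.0 and 7.65 CPM in KOs (log2 change -1.93, limma adjusted p = 0.113).

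Cell cycle genes had a median log2 fold change of 0.21, and 16 of 17 had a positive one, but 0 passed and the most abundant, Mki67, Top2a and Mcm6, had log2 fold changes of 0.19, 0.21 and 0.05. Without KO7 the median was 0.04. Detoxification genes had a median of 0.43 over 17 tested genes, of which 0 passed, and the value was 1.08 without KO7 and -0.11 without KO2. The remaining lists had 0 members that passed, and most of their medians depended on single cultures. The median was 0.31 for 8 MHC genes (0.16 to 0.43 with single cultures left out), 0.26 for 12 p53 target genes (0.09 to 0.36), 0.24 for 12 interferon-induced genes (0.07 to 0.34) and 0.22 for 15 sterol and fatty acid synthesis genes (0.01 to 0.47). The sign turned for 8 regional identity genes (median 0.12, range -0.03 to 0.19), 9 imprinted and fetal growth genes (0.08, -0.29 to 0.28) and 9 mucosal defence genes (-0.19, -0.59 to 0.42). It did not turn for 8 epithelial genes (0.05, 0.01 to 0.19), 12 BMP pathway genes (-0.08, -0.28 to -0.03) and 12 Notch pathway genes (-0.22, -0.27 to -0.16).

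**Figure D4:**
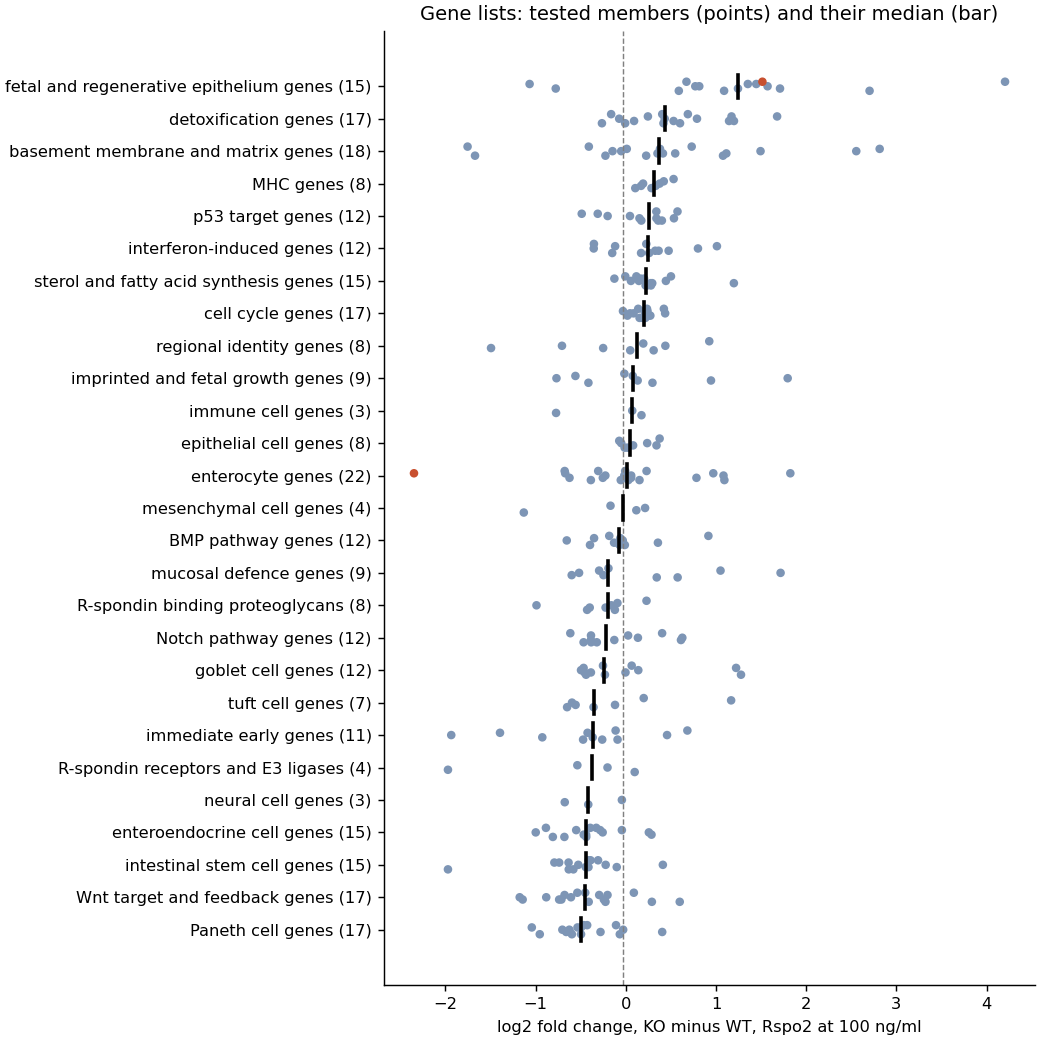
Log2 fold change (KO minus WT, Rspo2 at 100 ng/ml) of the tested members of each list (points) with the median (black bar) and the number tested in brackets, for lists with 3 or more tested members, sex-linked genes left out. Red points passed, and the dashed line is the median of all tested genes (-0.03). The medians run from -0.50 for Paneth cell genes to 1.24 for fetal and regenerative genes. The order at the lower end changes when single cultures are left out, and Paneth cell genes are not the lowest without WT10 or KO7.

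Whether the genotype difference depended on ligand or dose was asked by comparing the KO minus WT differences of Rspo2 at 100 ng/ml with those of another condition in the same cultures, with culture as a block. No gene outside X and Y passed in any of the 3 comparisons (limma, adjusted p of 0.05, 0% of 18012 genes against Rspo1 at 100 ng/ml, of 17800 against Rspo3 at 100 ng/ml and of 17744 against Rspo2 at 5 ng/ml). At an unadjusted p under 0.05 there were 1530 genes against Rspo1 (8.49%; 5.17% with a positive term and 3.33% with a negative one), 1397 against Rspo3 (7.85%; 1.85% and 5.99%) and 2692 against the low dose of Rspo2 (15.2%; 3.78% and 11.4%). Within the other conditions, the KO against WT test called 0 of 17291 genes in Rspo1 at 100 ng/ml (820 at an unadjusted p under 0.05, 4.74%). In Rspo3 at 100 ng/ml it called 3 of 16731 genes (0.0179%), all 3 higher in KOs (0.0179%), and 1287 were higher at an unadjusted p under 0.05 (7.69%). In Rspo2 at 5 ng/ml it called 58 of 16460 genes (0.352%), 43 higher (0.261%) and 15 lower (0.0911%), while 3380 had an unadjusted p under 0.05 (20.5%) and KO values lay wholly above WT values for 4310 (26.2%). All of these comparisons use the same 5 cultures. In simulated data made in the same way, the dose comparison called 81% of differences of 2 and 0% of differences of 1 on the log2(CPM + 1) scale. The false calls were 5 and 0, and these shares need not hold for the data. Without WT5, 380, 19 and 143 genes passed.

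The crypt genes are given by condition first. Lgr5 was at 116, 192 and 94.2 CPM in WTs and at 57.9 and 91.7 CPM in KOs in Rspo1 at 100 ng/ml, and at 50.7, 48.9 and 39.4 CPM in WTs and at 35.2 and 41.3 CPM in KOs in Rspo3. In Rspo2 at 5 ng/ml it was at 15.9, 28.7 and 6.1 CPM in WTs and at 20.6 and 90.5 CPM in KOs. WT values of Lgr5 were thus highest in Rspo2 at 100 ng/ml, and the highest KO value of the 4 conditions was 104 CPM. The difference of log2 fold changes between the doses of Rspo2 was -3.51 (95% interval -5.61 to -1.41, limma adjusted p = 0.204).

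Axin2 was at 423 and 379 CPM in KO7 and KO2 at the high dose of Rspo2 and at 138 and 433 CPM at the low dose, where the WTs were at 44.2, 91.0 and 14.6 CPM. The difference of log2 fold changes was -3.03 (95% interval -4.91 to -1.15, limma adjusted p = 0.210). KO2 thus held its level between the doses, while KO7 and all WTs were lower at 5 ng/ml. Olfm4 gave a difference of -3.14 (limma adjusted p = 0.212) and Lyz1 one of -2.02 (95% interval -2.59 to -1.45, limma adjusted p = 0.0873). Lyz1 was at 161, 173 and 134 CPM in WTs and at 301 and 353 CPM in KOs at the low dose. Of 17 Wnt target and feedback genes, 14 had an unadjusted p under 0.05 in the dose comparison with a negative term. So had 13 of 15 stem cell genes, Lgr5 itself among them, and 16 of 17 Paneth cell genes, where the background is 11.4%. Against Rspo3 the counts were 13, 8 and 16 (background 5.99%), and against Rspo1 8, 8 and 13 (background 3.33%). Their medians of the KO minus WT log2 fold change at the low dose were 1.25, 1.30 and 1.60, against -0.45, -0.44 and -0.50 at the high dose. In Rspo1 at 100 ng/ml they were 0.33, 0.09 and 0.06, and in Rspo3 at 100 ng/ml 0.58, 0.35 and 0.76.

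The fetal and regenerative genes had medians of the KO minus WT log2 fold change of 1.24 in Rspo2, 1.25 in Rspo1 and 1.68 in Rspo3 at 100 ng/ml and of 1.33 in Rspo2 at 5 ng/ml. Against Rspo3, 7 of 15 had an unadjusted p under 0.05 with a negative term (background 5.99%, median term -0.69). Against the low dose of Rspo2 there were 5 of 15 (background 11.4%, median term -0.55), and against Rspo1 3 of 15 (background 3.33%, median term -0.04). Clu was at 136 and 166 CPM in KOs and at 76.8, 63.0 and 50.3 CPM in WTs in Rspo1, and at 105 and 91.1 CPM against 21.7, 10.5 and 7.55 CPM in Rspo2 at 5 ng/ml, where it passed (limma adjusted p = 0.0493). Tlr4, which passed at both doses of Rspo2 (limma adjusted p = 0.0408 at 5 ng/ml), was at 2.0 CPM in both KOs and at 0.25, 0.3 and 0.15 CPM in WTs at the low dose. Psca was at 4.0 to 16.7 CPM in the KO libraries of the other 3 conditions and at 0.35 to 4.65 CPM in the WT libraries. For Lct the low values were those of KO2, at 9.6 to 12.2 CPM in the other 3 conditions, whereas KO7 was at 59.0 to 80.7 CPM and lay within the range of the WTs in each. The difference of the Lct change from that in Rspo1 at 100 ng/ml was -1.59 (95% interval -2.50 to -0.68, limma adjusted p = 0.413). Adamts15 overlapped between the genotypes in Rspo1, at 49.9, 25.8 and 85.3 CPM in WTs and at 63.9 and 29.4 CPM in KOs.

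**Figure D5:**
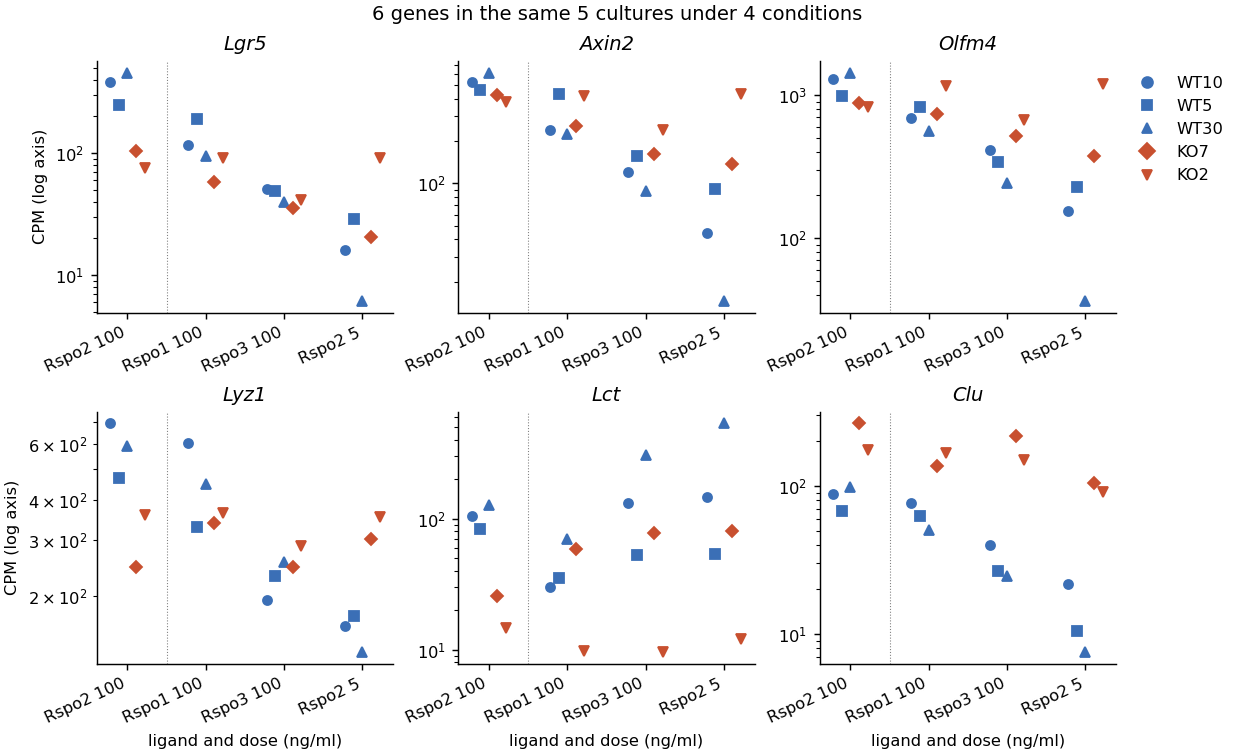
CPM (log axes) of Lgr5, Axin2, Olfm4, Lyz1, Lct and Clu in WT10, WT5 and WT30 (blue) and KO7 and KO2 (red) under 4 conditions, named by ligand and dose in ng/ml. Left of the dotted line is Rspo2 at 100 ng/ml, where KO values of Axin2, Olfm4 and Lyz1 lie below those of the WTs, and at the right Rspo2 at 5 ng/ml, where they lie above.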

How the data were processed

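RNA of organoids was sequenced after rRNA depletion (NEBNext). The authors trimmed reads with Trimmomatic 0.36, mapped them to GRCm38 with STAR 2.5.3a, counted them with HTSeq 0.9.1 on Ensembl release 90 genes, and deposited CPM, rounded up to the next 0.05. The table of 52636 genes holds 30 organoid libraries. Positions came from GENCODE M21 (52489 identifiers matched, and 45 tested genes without a position were left out of the counts). Depth was recovered from the spacing of the low CPM values (error at most 0.00154% on simulated tables). Genes reaching 1 CPM in 2 or more libraries were kept, and log2(CPM + 1) was fitted with limma 3.58.1 (R 4.3.3, eBayes with trend), with Benjamini-Hochberg adjustment over all genes tested and a threshold of 0.05. Deposited CPM are not counts, so no count test was run. The differences between conditions had culture as a block. Deviations of the same culture from its group mean correlated between conditions (0.368 to 0.702 in WTs and 0.527 to 0.719 in KOs). The deviations of KO7 and KO2 mirror each other, so both give the same correlation in each comparison.

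The named genes were the 12 largest rises and falls among genes that passed with groups that did not overlap (predicted and clone names left out), list members that passed, the 3 most abundant members of each list, the Rspondin receptors and ligases, sex-linked genes, and genes near Lgr5, and others are marked. The members and lists were chosen with earlier results of these data known. Alternatives were another pseudocount, filters, scalings, limits and variance models, all 30 libraries, and each culture left out. Tests were run on simulated data. Python 3.11.15, pandas 2.3.3, numpy 2.4.6 and matplotlib 3.10.9 were used. The sorted-cell table was not used.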

Additional observations from a re-analysis of the deposited data

How the results depend on the processing

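In the main test, 11 genes outside X and Y passed between KO and WT organoids in Rspo2 at 100 ng/ml. The count was 205 with all 30 organoid libraries taken as independent. It was 262 with culture as a replicate block in those 30 libraries (177 higher and 85 lower, with a correlation within culture of 0.339). The 30 libraries come from the same 5 cultures, so they add no embryos, and taking them as independent overstates the replication. In each of these fits 7 of the 11 genes passed, while Lct, Sprr1a, Abcc5 and Adamts15 did not. Both fits are among the alternatives counted for single genes below. The count was 5 with a mean of at least 10 CPM, where fewer genes were tested, and 1 with no filter, where more were tested. It was 4 without a trend in the variance, and 21 at an adjusted p of 0.1 and a fold above 1.5. The causes were not tested. Leaving out single cultures gave 1 to 98 genes: 98 without KO2, 8 without KO7, 1 without WT10, 3 without WT30 and 10 without WT5. With 1 KO left, it was assumed to vary as the WTs did. The 11 genes kept their direction in each fitted alternative. A930009A15Rik passed in 12 of 12, Gm9770 in 9 of 12, Gcnt3 and Dusp8 in 7 of 13, Lct in 6 of 13, Psca and Tlr4 in 5 of 12, Abcc5 and Adamts15 in 4 of 13, Sprr1a in 3 of 12 and Slc14a1 in 3 of 13. The log2 fold change of Lgr4 was -0.015 to 0.213 and that of Rnf43 -0.585 to 0.181 without single cultures.

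For the difference from other conditions, leaving out single cultures gave 0 to 380 genes against Rspo1, 0 to 19 against Rspo3 at 100 ng/ml and 0 to 143 against Rspo2 at 5 ng/ml, each highest without WT5. Against Rspo3, 10 passed without KO2, and against Rspo2 at 5 ng/ml, 21 without KO7. With no replicate block, 0 passed in each, with 192, 466 and 1791 genes at an unadjusted p under 0.05. Depth limits genes of a few CPM: at the lowest depth, 3 reads are 0.165 CPM.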
